A study of Rattus norvegicus with 6 samples.

Results

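Nucleolin, nucleophosmin, the proteins of the nucleolar snoRNPs and the snoRNP chaperone Nolc1 are encoded by 10 genes that were picked by name from the 32883 genes of a deposited count table: Ncl, Npm1, Fbl, Nop56, Nop58, Dkc1, Gar1, Nop10, Nhp2 and Nolc1. Each name occurred in a single row. The set was chosen with the difference between the libraries' groups in view, Ncl having stood out in it, so the fold changes and calls of these 10 genes are given as a description, without a test. The libraries hold RNA pulled down with pools of oligonucleotides from psoralen-treated GH4C1 cells, a cultured rat line from a pituitary tumour that makes prolactin and growth hormone, to find RNAs in direct contact with the long noncoding RNA Neat1. Psoralen crosslinks base-paired strands. The groups were 3 libraries from oligo pool A and 3 from oligo pool B, and both share the wild-type GH4C1 genotype and the psoralen treatment. The labels do not give the oligonucleotides of either pool, do not say whether a pool served as a control, and do not say whether libraries came from separate cultures, so the spread between libraries may be technical. No input RNA and no cells without crosslinking entered the comparison. A value therefore describes how much of an RNA was recovered, and its level in the cell and the efficiency of its recovery cannot be told apart, nor can the number of cells holding it and the amount per cell.

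Small nucleolar RNAs guide the chemical modification of ribosomal RNA, and each works inside a protein complex, the snoRNP. Box C/D snoRNPs hold the methyltransferase fibrillarin (Fbl) with Nop56, Nop58 and Snu13, and add methyl groups to ribose. Box H/ACA snoRNPs hold the pseudouridine synthase dyskerin (Dkc1) with Nhp2, Nop10 and Gar1. Nolc1, also called Nopp140, accompanies both classes between Cajal bodies and the nucleolus. Nucleolin and nucleophosmin are abundant nucleolar proteins that bind RNA and histones and act in ribosome assembly. In mammals the introns of Ncl, Nop56 and Nop58 contain snoRNA genes.

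Total counts per library were between 1826390 and 3685899. Of 11582 genes tested in edgeR's quasi-likelihood fit, 4700 (40.6%) passed an adjusted p under 0.05, 2154 of them (18.6%) in favour of pool A and 2546 (22.0%) in favour of pool B. Which direction held more calls depended on the scaling of the libraries: total counts alone gave 1722 for pool A and 2902 for pool B, and upper-quartile factors 2515 and 2251. The median log2 fold change of all tested genes was 0.02. Levels are given in CPM, a gene's counts scaled to a common library total. The lowest CPM of a pool exceeded the highest of the other for 49.1% of all tested genes, in 18.9% with pool A above and in 30.2% with pool B above. The 22 rows around Rn5-8s, a repeated ribosomal RNA gene, took between 13.3% and 22.9% of the counts with pool A and between 6.07% and 11.1% with pool B. The log2 fold changes of Ncl and Nolc1 were 3.76 and -2.81 with these rows left out of the library sizes. The 3 defining genes of the somatolactotroph lineage, Gh1, Prl and Pou1f1, summed to between 1010 and 1090 CPM with pool A and between 703 and 903 CPM with pool B. Prl carried this difference, with means of 713 and 445 CPM, while Gh1 had 170.2 and 166 CPM and Pou1f1 158 and 204 CPM, and neither was called. Of 5 genes of other pituitary cells, Tshb and Fshb were at 0 in every library and the sum, mostly Lhb, was between 9.10 and 19.4 CPM with pool A and between 40.9 and 46.2 CPM with pool B. Genes of other cells (Alb, Ptprc, Col1a1 and Gfap) summed to at most 5.65 CPM, with Alb at 0. The part of these differences in the results was not tested.

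The 10 genes did not share a direction. Of the 9 that passed the filter on low counts, 5 were called higher with pool A (Npm1, Ncl, Fbl, Nop10 and Gar1), 1 was called higher with pool B (Nolc1) and 3 were not called (Nop56, Nop58 and Dkc1), beside the 40.6% of all tested genes that were called. All 9 were above the filter's minimum of 3.59 CPM in all 6 libraries, and Nhp2 reached it in only 2 libraries, both of pool B. The CPM ranges of all 10 genes were apart with pool A above for 5 (18.9% of all tested genes), apart with pool B above for 2, Nolc1 and Dkc1 (30.2%), and overlapping for Nop56, Nop58 and Nhp2. The log2 fold changes of the 9, pool A over pool B, ran from -2.81 to 4.20 with a median of 1.18, beside the median of 0.02 over all tested genes. In the fits that also took in Nhp2 the median of the set lay between 0.56 and 0.75.

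**Figure D1:**
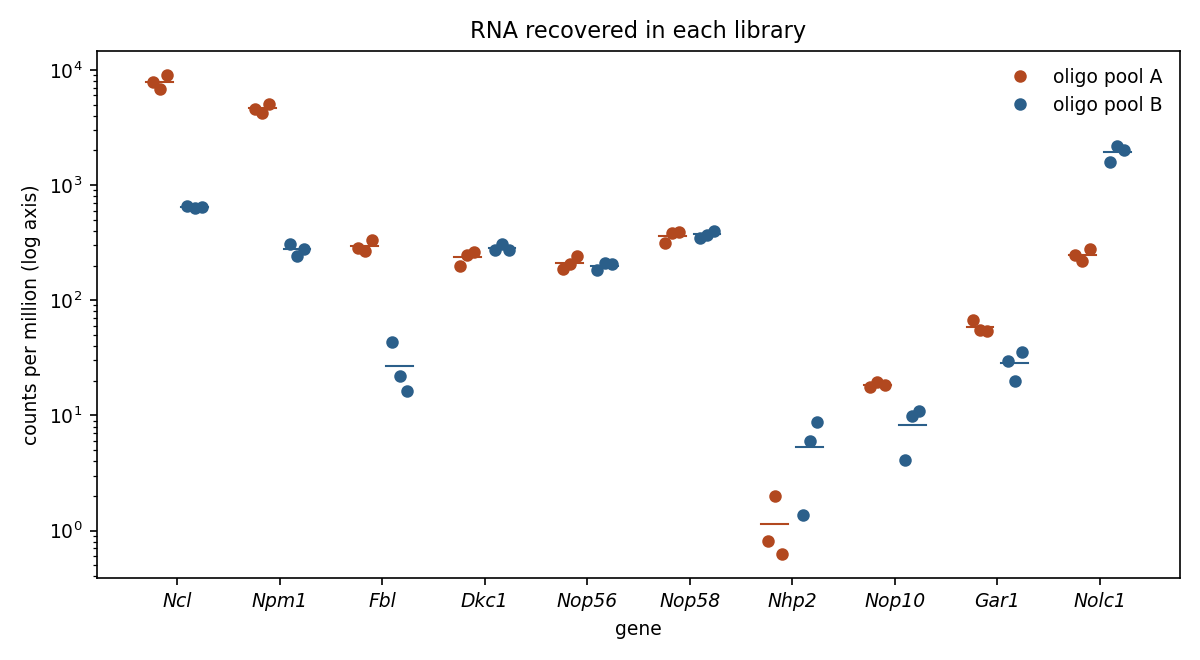
CPM on a log axis for the 10 genes, with a point for each of the 3 libraries of oligo pool A and oligo pool B and a bar at the mean of the 3. Ncl, Npm1 and Fbl lie well above their pool B values with pool A, Nolc1 lies well below, and the values of Nop56 and Nop58 overlap.

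Nucleolin and nucleophosmin RNA were recovered far more with pool A. Ncl (ENSRNOG00000018273) had 7889, 6781 and 9074 CPM with pool A and 654, 626 and 644 CPM with pool B. Every pool A library was above every pool B library. The pool A mean was 7915 ± 1147 CPM and the pool B mean 641 ± 14 CPM (SD, n = 3 for both). The fitted difference was 13.6-fold, a log2 fold change of 3.77 ± 0.16 (SE), which ranked 50 of 11582 from the side of pool A. Npm1 (ENSRNOG00000004616) had 4607, 4218 and 5083 CPM with pool A and 308, 243 and 280 CPM with pool B, again with no overlap. Its difference of 18.4-fold, a log2 fold change of 4.20 ± 0.16 (SE), was the largest of the set and ranked 34 of 11582. Differences of more than 8-fold in favour of pool A were found for 111 tested genes (0.958%), and Ncl, Npm1 and Fbl were among them.

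As a share of all counts, Ncl took between 0.678% (95% Wilson interval 0.668% to 0.688%) and 0.907% (0.897% to 0.918%) of a pool A library, and between 0.0626% (0.0591% to 0.0663%) and 0.0654% (0.0625% to 0.0684%) of a pool B library. These intervals cover counting error only. The 10 genes together took 1.40% ± 0.17 of a pool A library and 0.377% ± 0.029 of a pool B library (SD, n = 3 for both). Ncl and Npm1 set that direction. The other 8 genes together took 0.143% ± 0.014 of a pool A library and 0.286% ± 0.033 of a pool B library (SD, n = 3 for both), and in the latter Nolc1 made up most of their counts.

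To place the genes with the largest differences in the genome, the stretches upstream of the start sites that RefSeq lists for them are shown, 250 bases each, from the GRCr8 assembly. The build behind the count table is not given in the sources used here. Capitals mark GC boxes (GGGCGG or its reverse complement CCGCCC) and ETS elements (CCGGAAGT or its reverse complement ACTTCCGG).
Ncl, chr9:94456084-94456333, minus strand: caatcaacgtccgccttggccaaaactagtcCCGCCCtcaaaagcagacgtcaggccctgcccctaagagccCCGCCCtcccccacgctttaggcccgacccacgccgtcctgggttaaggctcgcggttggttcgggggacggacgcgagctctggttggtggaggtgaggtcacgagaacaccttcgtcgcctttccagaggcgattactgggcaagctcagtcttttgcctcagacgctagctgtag
Npm1, chr10:18255742-18255991, minus strand: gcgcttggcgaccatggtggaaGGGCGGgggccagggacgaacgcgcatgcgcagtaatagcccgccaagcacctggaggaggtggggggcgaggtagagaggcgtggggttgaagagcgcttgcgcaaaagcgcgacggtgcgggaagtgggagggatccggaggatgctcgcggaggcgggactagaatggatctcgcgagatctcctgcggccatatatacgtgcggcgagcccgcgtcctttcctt
Fbl, chr1:92597157-92597406, plus strand: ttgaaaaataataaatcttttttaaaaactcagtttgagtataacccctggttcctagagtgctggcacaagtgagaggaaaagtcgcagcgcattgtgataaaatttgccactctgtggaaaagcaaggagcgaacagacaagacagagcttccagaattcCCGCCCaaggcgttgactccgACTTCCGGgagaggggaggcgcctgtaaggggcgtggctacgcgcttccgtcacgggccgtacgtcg
Nolc1, chr1:254870109-254870358, plus strand: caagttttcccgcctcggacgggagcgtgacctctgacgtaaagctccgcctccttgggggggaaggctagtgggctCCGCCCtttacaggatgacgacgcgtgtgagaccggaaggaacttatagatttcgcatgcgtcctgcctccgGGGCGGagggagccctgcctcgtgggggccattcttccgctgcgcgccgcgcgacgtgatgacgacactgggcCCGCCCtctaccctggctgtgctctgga
Ncl, Npm1 and Nolc1, which differ in the direction of their recovery, all carry GC boxes here and no ETS element. Windows of all 10 genes were found in the RefSeq table and searched on both strands for 4 motifs, picked after the sequences had been seen, in the 250 upstream bases. GC boxes were in 9 of the 10 windows, all but that of Nop10, and in 38.9% of the 21851 windows of protein-coding genes. ETS elements were in 5 windows (Fbl, Dkc1, Nop58, Nhp2 and Gar1) and in 3.94% of those of protein-coding genes. An E-box (CACGTG) was in that of Dkc1 alone, against 6.16%. The letters TATAAA or TTTATA were in that of Nop58 alone, against 12.1%, at the end of the window far from the start site. A match is a description of these letters only.

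The box C/D proteins split. Fbl (ENSRNOG00000019229), the methyltransferase, had 281, 269 and 334 CPM with pool A and 43.0, 21.9 and 16.3 CPM with pool B. The pools did not overlap, and within pool B replicate 1 was the highest, on counts of 126, 40 and 43. Fbl differed by 11.8-fold, a log2 fold change of 3.56 ± 0.22 (SE), which was 4.11 without pool B replicate 1. Nop56 (ENSRNOG00000007128), a scaffold protein of the complex, had 186, 207 and 242 CPM with pool A and 182, 209 and 207 CPM with pool B. The values overlapped, and its log2 fold change of 0.23 ± 0.14 (SE) had a 95% interval of -0.04 to 0.50. Nop58 (ENSRNOG00000016486), the paralog that pairs with Nop56 in the complex, had 316, 380 and 394 CPM with pool A and 350, 371 and 402 CPM with pool B. The fitted log2 difference of 0.10 ± 0.13 (SE) had a 95% interval of -0.16 to 0.36, and its sign turned to -0.04 with total counts alone.

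The box H/ACA proteins were recovered unequally as well. Gar1 (ENSRNOG00000061146), a small subunit with glycine and arginine rich ends, had 67.6, 55.0 and 54.0 CPM with pool A and 29.7, 19.7 and 35.6 CPM with pool B, without overlap. It differed by 2.27-fold, a log2 fold change of 1.19 ± 0.24 (SE). Nop10 (ENSRNOG00000005184), the smallest subunit, had 17.6, 19.4 and 18.2 CPM with pool A and 4.09, 9.86 and 10.97 CPM with pool B. Its counts were 65, 49 and 58 against 12, 18 and 29, so the lowest library, pool B replicate 1, stood apart from the other two of its pool. The log2 fold change of Nop10 was 1.31 ± 0.41 (SE), a 2.48-fold difference. Without pool B replicate 1 it was 0.96 and was no longer called. Dkc1 (ENSRNOG00000055562), the catalytic subunit, had 200.0, 246 and 261 CPM with pool A and 271, 309 and 273 CPM with pool B. On this scale every pool B library was above every pool A library, but the values overlapped after TMM scaling. The log2 fold change of Dkc1 was -0.13 ± 0.14 (SE), with a 95% interval of -0.39 to 0.14.

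Nhp2 (ENSRNOG00000004247), the remaining H/ACA subunit, was close to the limit of detection, with counts of 3, 5 and 2 for pool A and 4, 11 and 23 for pool B. The libraries of the pools overlapped. The upper limit for a gene with no counts, 3 counts, is between 0.814 and 1.64 CPM in these libraries, and Nhp2 lay between 0.627 and 8.70 CPM. It was not tested in the fit of all libraries. Fitted without a filter its log2 fold change was -2.07 ± 0.95 (SE) and was not called. Of the 5 fits that took it in, it was called only in the one without pool B replicate 1, at -2.56 ± 0.86 (SE). That fit left out its lowest pool B library. With a library left out, Nhp2 passed the filter only through pool B, so no conclusion is drawn from that call.

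Nolc1 (ENSRNOG00000018704) went the other way from Ncl and Npm1. It had 249, 218 and 279 CPM with pool A and 1598, 2162 and 2024 CPM with pool B. The lowest pool B library was well above the highest pool A library. Nolc1 was 7.02-fold higher with pool B, and its log2 fold change of -2.81 ± 0.15 (SE) ranked 171 of 11582 from the side of pool B.

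**Figure D2:**
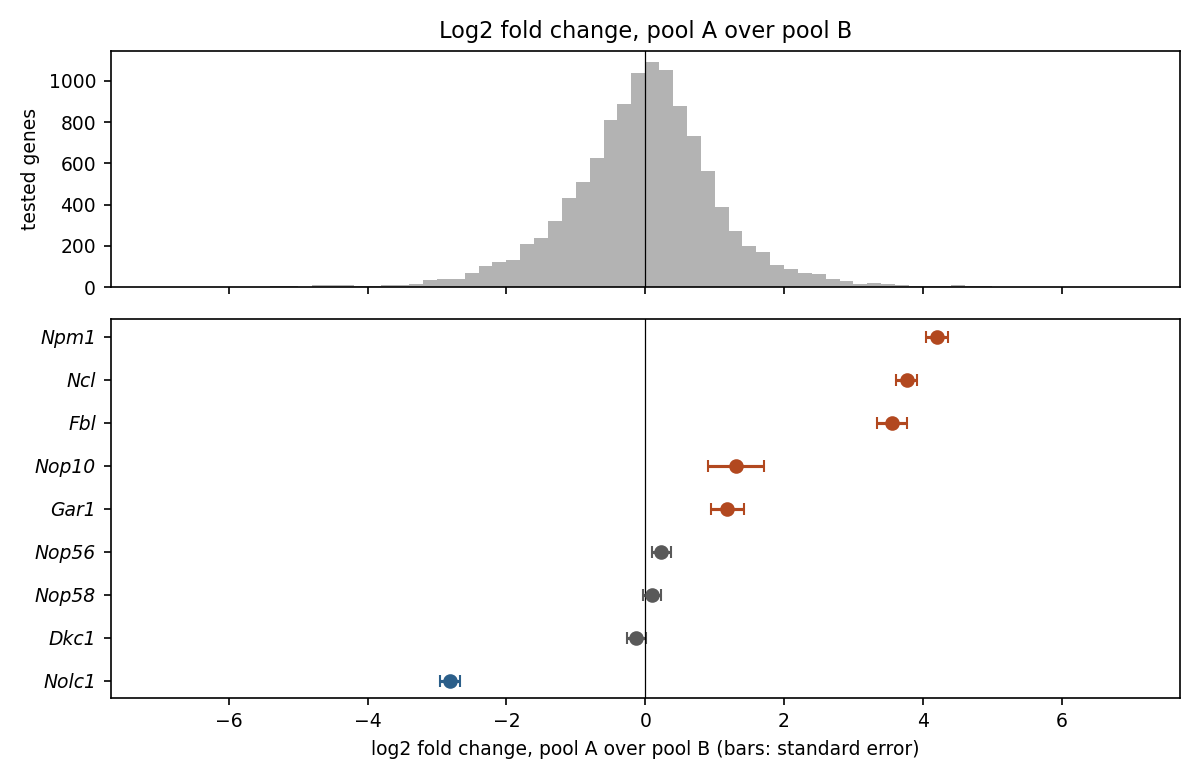
The lower panel shows the log2 fold change, pool A over pool B, of the 9 tested genes with its standard error (red-brown, called higher with pool A; blue, called higher with pool B; grey, not called), and the upper panel the number of tested genes by log2 fold change over all 11582. Npm1, Ncl and Fbl lie in the right tail at 4.20, 3.77 and 3.56, Nolc1 lies in the left tail at -2.81, and Nop56, Nop58 and Dkc1 lie near 0.

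Ratios of counts within a library do not depend on the scaling of the libraries. Nop56 received 0.590, 0.546 and 0.613 counts per count of Nop58 with pool A and 0.520, 0.562 and 0.516 with pool B. These ratios overlapped between the pools. Fbl received 0.890, 0.708 and 0.846 counts per count of Nop58 with pool A, and 0.123, 0.0590 and 0.0405 with pool B, so that its mean ratio to this partner was 11.0 times as high with pool A. Nop10 received 0.261, 0.353 and 0.337 counts per count of Gar1 with pool A and 0.138, 0.500 and 0.309 with pool B, a range that spans the values of pool A. Dkc1 received 0.633, 0.648 and 0.663 counts per count of Nop58 with pool A and 0.776, 0.833 and 0.679 with pool B, so the pools were apart although neither gene was called. In the H/ACA complex, the ratio of Gar1 to Dkc1 averaged 0.256 ± 0.072 for pool A and 0.101 ± 0.034 for pool B (SD, n = 3 for both). Ncl and Npm1, both far higher with pool A, did not change by the same factor. Ncl received 1.71, 1.61 and 1.79 counts per count of Npm1 with pool A and 2.12, 2.57 and 2.30 with pool B, and the pools did not overlap. Ncl and Nolc1 went in opposite directions. Ncl had 31.7, 31.1 and 32.5 counts per count of Nolc1 with pool A, and 0.409, 0.290 and 0.318 with pool B.

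**Figure D3:**
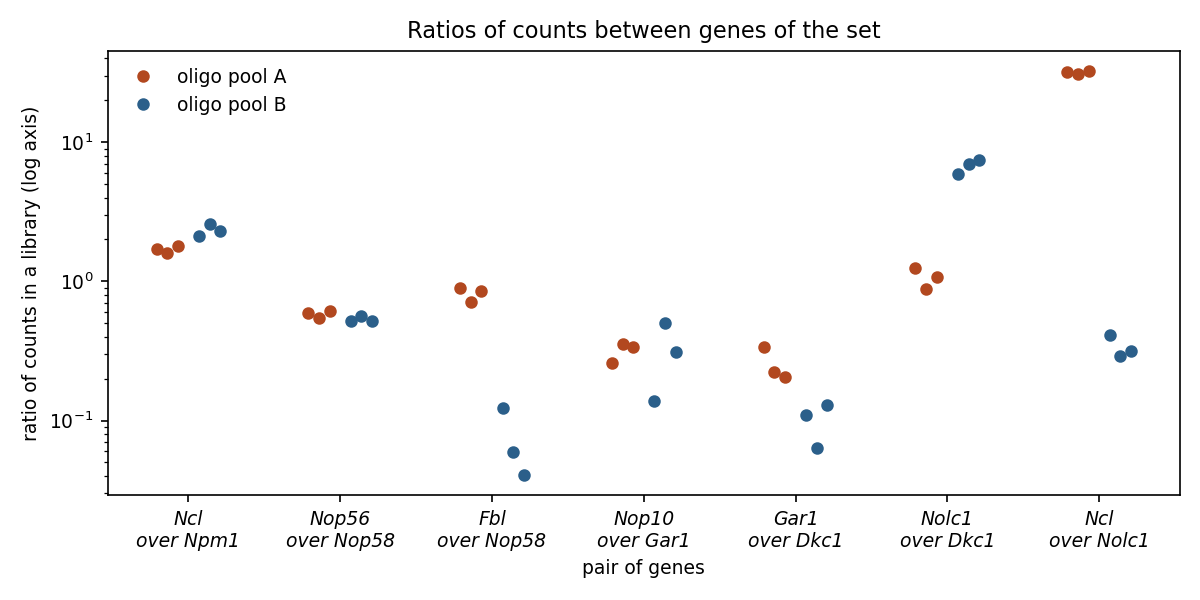
Ratio of the counts of a gene to those of another gene in the same library, on a log axis, with a point for each of the 3 libraries of each oligo pool. The ratios Nop56 over Nop58 and Nop10 over Gar1 overlap between the pools, and Ncl over Nolc1 lies between 31.1 and 32.5 with pool A and between 0.290 and 0.409 with pool B.

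The spread inside a pool was not used to choose the genes. After TMM scaling, which adjusts library totals for a few abundant RNAs, the SD of log2 CPM over the 3 libraries had a median of 0.13 with pool A and 0.18 with pool B over the 9 tested genes, and of 0.28 and 0.29 over all tested genes, many of which have fewer counts. With total counts alone the medians of the 9 genes were 0.18 and 0.17, so neither pool was the less variable on both scales. TMM-scaled values of Ncl had SDs of 0.13 with pool A and 0.047 with pool B. On that scale Fbl and Nop10 varied most, both with pool B, with SDs of 0.70 for each gene. In the library pool B replicate 1 they deviated in opposite directions from the mean of their pool, Fbl by 0.77 and Nop10 by -0.80.

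RefSeq places 13 snoRNA genes inside the spans of the 10 genes, 3 in Ncl, 5 in Nop56 and 5 in Nop58. The count table runs in genomic order, and 6 rows with snoRNA names lay within 5 rows of these hosts. Counts in them were low. SNORD82, 4 rows from Ncl, had 12, 3 and 27 counts with pool A and 0 in every pool B library. With pool A its mean was at least 3.40-fold higher, set against a floor of 3 counts per pool B library. Pool A replicate 3 carried most of it, the bound was 1.75-fold without that library, and pool A replicate 2 was itself at 3 counts. SNORA75, in the row next to Ncl, had 3, 4 and 2 counts with pool A and 0 with pool B, too few for a fold change. The other 4 (Snord110 and Snord57 beside Nop56, Snord70 and Snord11 beside Nop58) had at most 7 counts in any library, so no difference was detectable for them at this depth. Among them lay rows with names that do not say snoRNA, and 2 of these had enough counts to be tested, a fact looked up after their values were seen. Gm26293, 3 rows from Nop58, had 8, 9 and 2 counts with pool A and 36, 12 and 16 with pool B. The fitted log2 fold change was -1.83 ± 0.68 (SE; edgeR adjusted p 0.0332), a call lost without pool A replicate 1, pool A replicate 3 or pool B replicate 1 (adjusted p 0.0858 to 0.197). Gm23187, 3 rows from Nop56, had 37, 23 and 32 counts against 65, 13 and 19, which overlap, and was not called (log2 fold change -0.20 ± 0.46 SE, edgeR adjusted p 0.767).

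Of the 100 rows within 5 rows of the 10 genes, 31 were tested and 14 of them were called, 6 in favour of pool A and 8 in favour of pool B, beside 40.6% of all tested genes. Their fold changes are given as a description, since Ncl, Npm1, Fbl and Nolc1 were chosen with their own large differences known. Of the 10 rows within 5 of Ncl, 3 were tested, with log2 fold changes between -1.40 and 0.83 against 3.77 for Ncl. The 3 tested rows around Npm1 lay between 0.39 and 0.80, and those around Fbl between -0.79 and 0.36. Around Nolc1, 6 rows were tested and lay between -0.67 and 1.07 against -2.81. Both tested rows around Gar1 (-1.24 and -1.22) had the opposite sign to Gar1 and were as far from 0 as Gar1. Around Nop56 the 3 tested rows lay between -0.91 and -0.20, and around Nop58 between -1.83 and 0.35, so these held rows farther from 0 than the genes themselves. Dkc1, which was not called, had a neighbour that was. LOC102552182 in the next row, which RefSeq lists as Ctag2l2, had counts of 430, 246 and 485 with pool A and 2500, 1746 and 2470 with pool B, and its log2 fold change was -2.77 ± 0.15 (SE; edgeR adjusted p 1.25e-14). In the rows before Nhp2, Phykpl and LOC103689931 had log2 fold changes of 2.37 ± 0.42 and 2.31 ± 0.36 (SE), and both stood out in pool A replicate 1, with 5041 counts of Phykpl against 610 and 589 in the other pool A libraries. Without that library the log2 fold changes were 0.87 and 1.27.

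**Figure D4:**
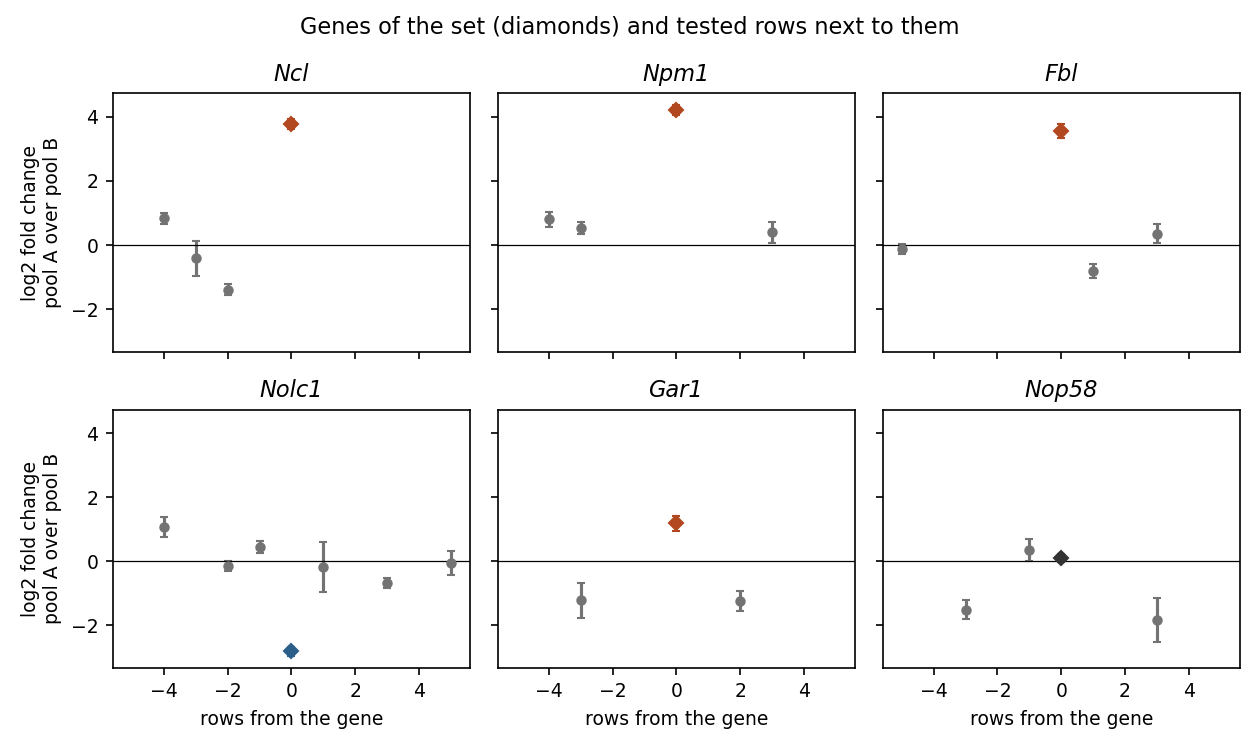
Log2 fold change, pool A over pool B, with its standard error, for 6 genes of the set (diamonds at 0; red-brown, called higher with pool A; blue, called higher with pool B; dark grey, not called) and for the tested rows up to 5 rows away in the table's genomic order (grey points). The tested rows around Ncl lie between -1.40 and 0.83 and those around Nolc1 between -0.67 and 1.07, and Nop58 lies within the range of its neighbours.

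Copies of these genes bear on how far their counts can be trusted. RefSeq names 45 pseudogenes or paralogs for 6 of the genes, among them 21 for Npm1, 8 for Fbl, 5 each for Ncl and Nhp2, and 3 each for Dkc1 and Nop10. Of these, only Fbll1 occurs in the table under its name, at 0 in every library. How reads that match several copies were counted is not given in the sources used here. The counts of these 6 genes, Npm1 with its 21 named copies among them, are therefore uncertain in size. Npm3, a relative of Npm1, had 32, 13 and 24 counts with pool A and 8, 13 and 12 with pool B, and was not called (log2 fold change 0.76 ± 0.58 SE, edgeR adjusted p 0.329). Npm2 was at 0 in every library.

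The genes outside the set whose pattern over the 6 libraries was most like that of Ncl were Rhobtb1, Ezh2, App, Rnf167 and Trmt6. Likeness was the Euclidean distance between TMM-scaled log2 CPM values centred on each gene's mean, and these 5 lay at 0.331 to 0.437 from Ncl. Their log2 fold changes were between 3.52 (Trmt6) and 3.86 (Rhobtb1), close to the 3.77 of Ncl, which follows from the measure. Npm1 lay at 0.594 and Fbl at 0.975, 12th and 38th in the order of distance. Nop10 and Gar1 followed far behind at 3.18 and 3.20, and Nolc1 was the farthest of the set at 8.04.

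Other genes of ribosome biogenesis were read from 5 lists that exclude the 10 genes. Of 121 tested genes, 33 were called in favour of pool A and 29 in favour of pool B (51.2%, beside 40.6% of all tested genes, of which 18.6% were in favour of pool A and 22.0% in favour of pool B). The split is that under TMM scaling. In single lists its direction turned with the scaling, as given below. By list, the shares called for pool A and pool B were 31.7% and 22.0% for the small subunit processome with later factors of that subunit. They were 28.9% and 31.6% for large subunit assembly, and 26.7% and 33.3% for RNA polymerase I. For the list of nucleolar GTPases, the nucleoplasmin family and other nuclear proteins, 41.7% were called in either direction, near the share over all genes. The list medians lay between 0.01 and 0.20 on the log2 scale, near the 0.02 of all tested genes, while single genes moved far in both directions. Among the 15 tested genes of snoRNP assembly, which include the remaining C/D core protein Snu13, 3 passed in favour of pool A and 0 in favour of pool B in edgeR's fit. In that direction 1 gene had an unadjusted p under 0.05, and the calls were 0 with DESeq2 and 1 with limma-voom. Total counts alone gave 2 calls for pool A and 1 for pool B in this list. Rrp9, the U3 snoRNP protein, had a mean of 388 ± 24 CPM for pool A against 43.2 ± 11.4 for pool B (SD, n = 3 for both), and its log2 fold change was 3.29 ± 0.17 (SE; edgeR adjusted p 1.37e-14). Ruvbl2, an ATPase of the assembly machinery, rose with pool A by 1.90 ± 0.18 (SE) on the log2 scale (edgeR adjusted p 9.43e-10). Tgs1, the cap hypermethylase, was just past the threshold at 0.60 ± 0.24 (SE), edgeR adjusted p 0.0438, and lost the call with total counts alone, with DESeq2 and without pool A replicate 1, pool A replicate 2 or pool B replicate 1, with adjusted p between 0.0565 and 0.253 in those fits. Snu13 had 0.41 ± 0.22 (SE) and was not called (edgeR adjusted p 0.148).

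The small subunit processome cleaves and folds the early ribosomal RNA precursor. Its list also held later maturation factors of that subunit, such as Ltv1 and Tsr1. In the list, 13 of 41 tested genes were called in favour of pool A and 9 in favour of pool B. This split turned with the scaling, to 10 and 11 with total counts alone, and was 16 and 7 with upper-quartile factors. Utp3 had a mean of 580 ± 33 CPM for pool A against 38.0 ± 2.3 for pool B (SD, n = 3 for both). Its log2 fold change, 4.08 ± 0.15 (SE; edgeR adjusted p 1.77e-17), was between those of Ncl and Npm1. Utp11 and Nop14 followed at 2.29 ± 0.33 and 1.82 ± 0.18 (SE). In favour of pool B, Noc4l, Ltv1 and Tsr1 had log2 fold changes of -1.89 ± 0.25, -1.73 ± 0.17 and -1.45 ± 0.14 (SE). Of 38 tested genes of large subunit assembly, 11 were called higher with pool A, led by Senp3, Surf6 and Rsl24d1 at 2.53 ± 0.24, 2.43 ± 0.16 and 2.18 ± 0.27 (SE). Another 12 were called higher with pool B, led by Tma16, Wdr74 and Rrp1 at -2.10 ± 0.35, -1.86 ± 0.26 and -1.74 ± 0.17 (SE).

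RNA polymerase I, which transcribes the ribosomal DNA, had 4 of 15 tested genes called in favour of pool A and 5 in favour of pool B. Rrn3 and Taf1a, needed to start transcription, had log2 fold changes of 2.49 ± 0.33 and 2.39 ± 0.31 (SE). Ubtf, the architectural factor of ribosomal DNA, had a mean of 895 ± 102 CPM for pool A against 307 ± 19 for pool B (SD, n = 3 for both), and its log2 fold change was 1.69 ± 0.13 (SE; edgeR adjusted p 3.82e-11). Polr1d, Taf1d and Taf1c went the other way at -1.06 ± 0.34, -1.06 ± 0.15 and -0.78 ± 0.25 (SE). The calls of Polr1d and Taf1c were lost in some fits with a library left out. Without pool A replicate 2 the number called higher with pool B in this list was 3. Among 12 tested genes of the nucleolar GTPases, the nucleoplasmin family and other nuclear proteins, 2 were called higher with pool A. These were Mybbp1a at 2.22 ± 0.13 (SE) and Nop9 at 1.08 ± 0.35 (SE), neither of them a GTPase or a nucleoplasmin. The call of Nop9 was lost without pool A replicate 1 (log2 fold change 0.90), which left 1 call in that direction. The split in this list was 2 and 4 with total counts alone, and 3 and 2 with upper-quartile factors. Gnl3, Gnl3l and Lyar were called higher with pool B at -1.81 ± 0.16, -1.13 ± 0.21 and -0.59 ± 0.22 (SE), Lyar with an edgeR adjusted p of 0.0342 that was above 0.05 in 5 of the 15 alternatives (range 0.0115 to 0.206 over all 15).

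**Figure D5:**
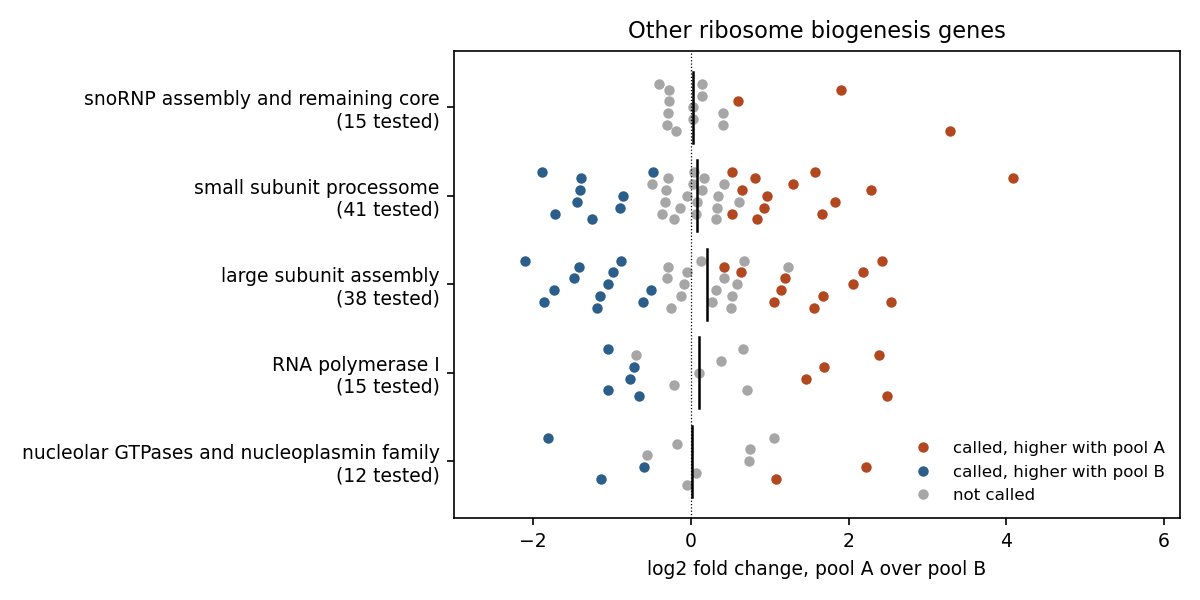
Log2 fold change, pool A over pool B, of each tested gene in 5 lists of ribosome biogenesis genes that exclude the 10 genes of the set, with a vertical bar at each list's median. The medians lie between 0.01 and 0.20, and called genes lie on both sides of 0 in all lists but that of snoRNP assembly, where 3 are called in favour of pool A and 0 in favour of pool B.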

How the data were processed

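The authors deposited a table of raw counts per rat gene, whole numbers whose sums differ between libraries. Per the submitters' processing notes, STAR and featureCounts were used, and their versions, the genome build, the annotation and the handling of strand and multiply matching reads are not given in the sources used here. The deposited table also holds a signal column per pool that equals the mean of its 3 counts and was not used. Each of the 6 count columns carries the title of its sample. Counts were fitted with edgeR 4.0.16 in R 4.3.3 (filter by pool with a minimum of 10 counts, TMM scaling, quasi-likelihood test with the pool as the only term, Benjamini-Hochberg adjustment over all 11582 tested genes, threshold 0.05). Standard errors come from the fold change and the F statistic, and 95% intervals of fold changes from a normal approximation. CPM uses the total counts of a library, and centred log2 CPM a prior count of 2. The fit was tested on simulated data. The 10 genes and the lists were chosen with earlier results of these data known. Genes outside the set were named by a rule that takes up to 3 called genes per list and direction and the 5 nearest to Ncl, and Snu13, Npm2 and Npm3 were added as partners or relatives. Rows discussed as neighbours were picked by position, and those named beside Nhp2, Dkc1, Nop56 and Nop58 after their values were seen. Names of neighbouring and hosted rows are those of the count table. RefSeq, assembly GRCr8, gave the snoRNA genes inside the spans, the named copies and the name Ctag2l2. Alternatives were DESeq2 1.42.0, limma-voom (limma 3.58.1), other scalings and filters, a replicate block and leaving out each library.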

Additional observations from a re-analysis of the deposited data

How the results depend on the processing

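Under 15 alternatives, the log2 fold changes of the 9 tested genes moved by less than the SDs of both pools, combined as the root of their summed squares, in all 135 refits. They ranged from 3.63 to 3.87 for Ncl, from 4.07 to 4.31 for Npm1, from 3.28 to 4.11 for Fbl and from -2.95 to -2.71 for Nolc1. Total counts alone shifted the median log2 fold change of all tested genes by -0.14 and upper-quartile factors by 0.10, and pool A held 37.2% and 52.8% of their calls, against 45.8% with TMM. Leaving out a library gave 4 to 5 genes of the set called higher with pool A and 1 to 2 with pool B. The 4 and the 2 came without pool B replicate 1, where Nop10 lost its call and Nhp2 was called. Nhp2 passed the filter only through pool B. For the whole table these fits gave from 1856 to 2048 and from 2194 to 2390 genes, with fewer samples by construction. In the list of snoRNP assembly, 1 gene was called higher with pool B with total counts alone, 1 with limma-voom, and leaving out a library gave 0 to 1. For RNA polymerase I genes higher with pool B the range was 3 to 5. In the list with the nucleolar GTPases it was 1 to 3 for genes higher with pool A. The cause was not tested. Among refits of the other named genes (those named from the lists, the 5 nearest to Ncl, Gh1, Prl, Pou1f1, Lhb, and 7 neighbours or relatives), 608 gave the same sign and the same verdict, called or not (Snu13, Npm3, Gm23187, Gh1 and Pou1f1 being uncalled throughout), 19 lost the call and 1 changed sign, that of Gm23187, with leave-one-out values between -0.48 and 0.58. With 2 rows either side in place of 5, 3 rows with snoRNA names were found.

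Libraries of the same number showed no shared deviation over genes (r 0.0409, -0.0195 and 0.0200), and the labels tie no number to a day or culture, so no pairing was assumed. With the replicate block, 2085 and 2476 genes were called in the whole table, and 5 and 1 of the set. Levels per coding length were not run, since no coding lengths were used here. Depth limits what can be said of Nhp2 and of the rows with snoRNA names.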
